A study of Mus musculus with 8 samples.

Results

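The genes described here are 33 markers of lung cells other than the myofibroblast, out of 43432 mouse genes in the count table. They were chosen by name, as well-known markers of epithelial, endothelial, immune, erythroid, mesothelial, cardiac and glial cells, and each was matched to 1 row of the table by its Ensembl identifier. All 33 had a row. They are read as traces of other cells in each library, or as genes that the myofibroblasts transcribe themselves. In bulk RNA, fewer cells of a type and less RNA per cell cannot be told apart.

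The study profiled lung myofibroblasts at postnatal day 7 on a C57BL/6 background in 8 libraries. The wild type group (control 1 to control 4) and the group labelled Fra-2 transgenic, with constitutive expression of Fra-2 (Fra-2 1 to Fra-2 4), held 4 libraries each. The sources used here name neither the promoter of the transgene nor how the cells were isolated. Nothing in the labels ties a library to its own animal or culture, and the p-values therefore describe sample-to-sample spread, which may be technical. Fosl2, which encodes Fra-2, measured 104.9 to 141 CPM in the controls and 104 to 166 CPM in the libraries labelled transgenic (CPM is the read count relative to the TMM-scaled library size). Its log2 fold change was 0.14 (edgeR, SE 0.136 and adjusted p = 0.888), so the second group is called by its label throughout. Total counts were 29926239 to 41335957 per library.

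A lung at this age is building alveoli. Type 2 cells make surfactant, type 1 cells form the thin gas-exchange surface, club and ciliated cells line the airways, endothelial cells line the vessels, and mesothelium covers the organ. Heart muscle also extends along the pulmonary veins of the mouse, and red cells and leukocytes come with the blood. Surfactant protein, secretoglobin and globin messages are among the most abundant of their cells, so a few such cells can leave many reads.

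The labelled cell type was checked against 12 myofibroblast markers, among them Pdgfra, Acta2, Myh11 and Eln. Their means over the 8 libraries ran from 363 CPM for the lowest to 6845 CPM for Col1a2, and their summed level was 24517 to 29596 CPM per library. The 33 members summed to 489 to 739 CPM in the controls and 668 to 774 CPM in the libraries labelled transgenic. Per kilobase of exon, Hhip was the lowest of the 12 at 40.5 CPM per kb. Only 3 of the 33 members lay above it, namely Eng at 68.0, Scgb1a1 at 54.0 and Sftpc at 52.3 CPM per kb. By mean CPM, 1 member was at 100 or more, 15 lay from 10 to under 100, 14 from 1 to under 10, and 3 (Scgb3a2, Cd3e and Wt1) under 1.

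**Figure D1:**
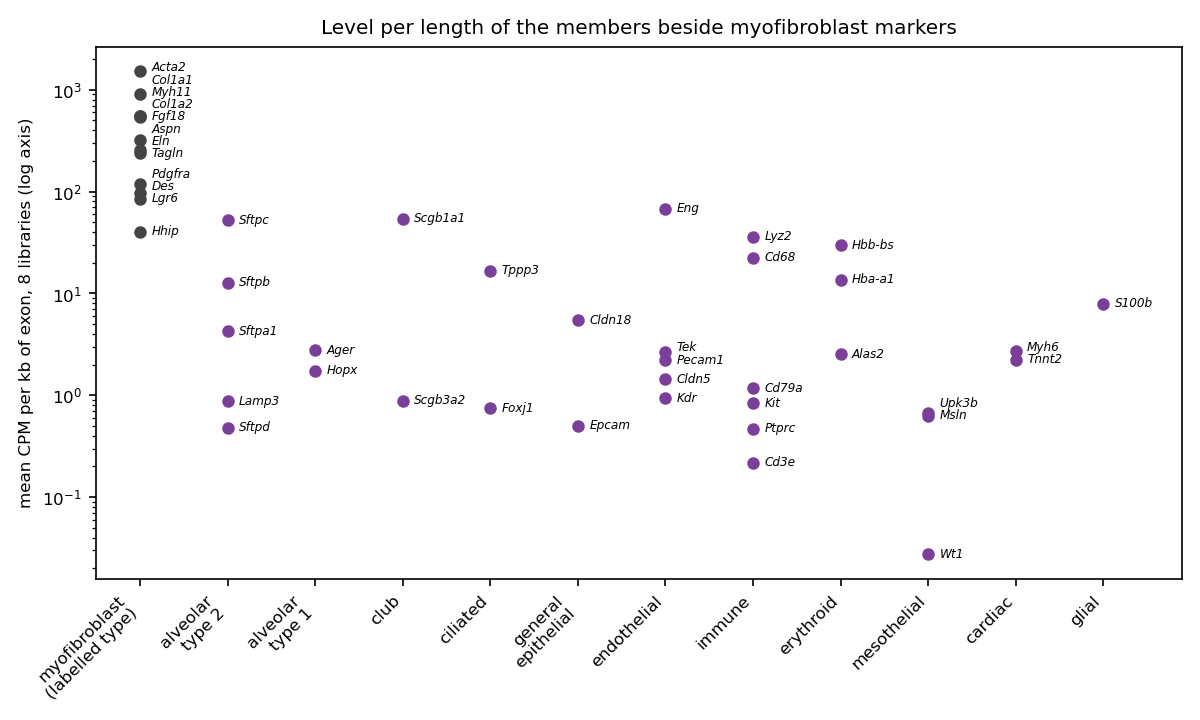
Mean level per length of the 33 members (purple) and of 12 myofibroblast markers (grey), in CPM per kb of exon over 8 libraries on a log axis, 1 column per cell class. Hhip, the lowest myofibroblast marker, sits at 40.5 CPM per kb, and Eng, Scgb1a1 and Sftpc are the 3 members above it.

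Over all genes tested, 0 of the 33 members passed the comparison between the groups. The filter on low counts kept 32 members and left out Wt1. Of these 32, 0 were higher and 0 lower in the libraries labelled transgenic (edgeR, adjusted p under 0.05), where 0.72% of all 15422 tested genes were higher and 0.298% lower. At an unadjusted edgeR p under 0.05 there were 7 members (Sftpb, Lamp3, Eng, Tek, Kit, Msln and Tppp3), against 8.71% of all tested genes. DESeq2 called 1 member, Sftpb (adjusted p = 0.0467), where it called 0.986% of its 26980 genes higher and 0.385% lower. It had 7 of 33 members at an unadjusted p under 0.05, against 6.4% of all genes. The members' median log2 fold change was 0.17, with 20 positive and 12 negative, beside -0.01 over all genes tested. For 13 of the 32 the 95% interval of the fold change lay within 2-fold either way, and for the other 19 it reached past 2-fold.

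**Figure D2:**
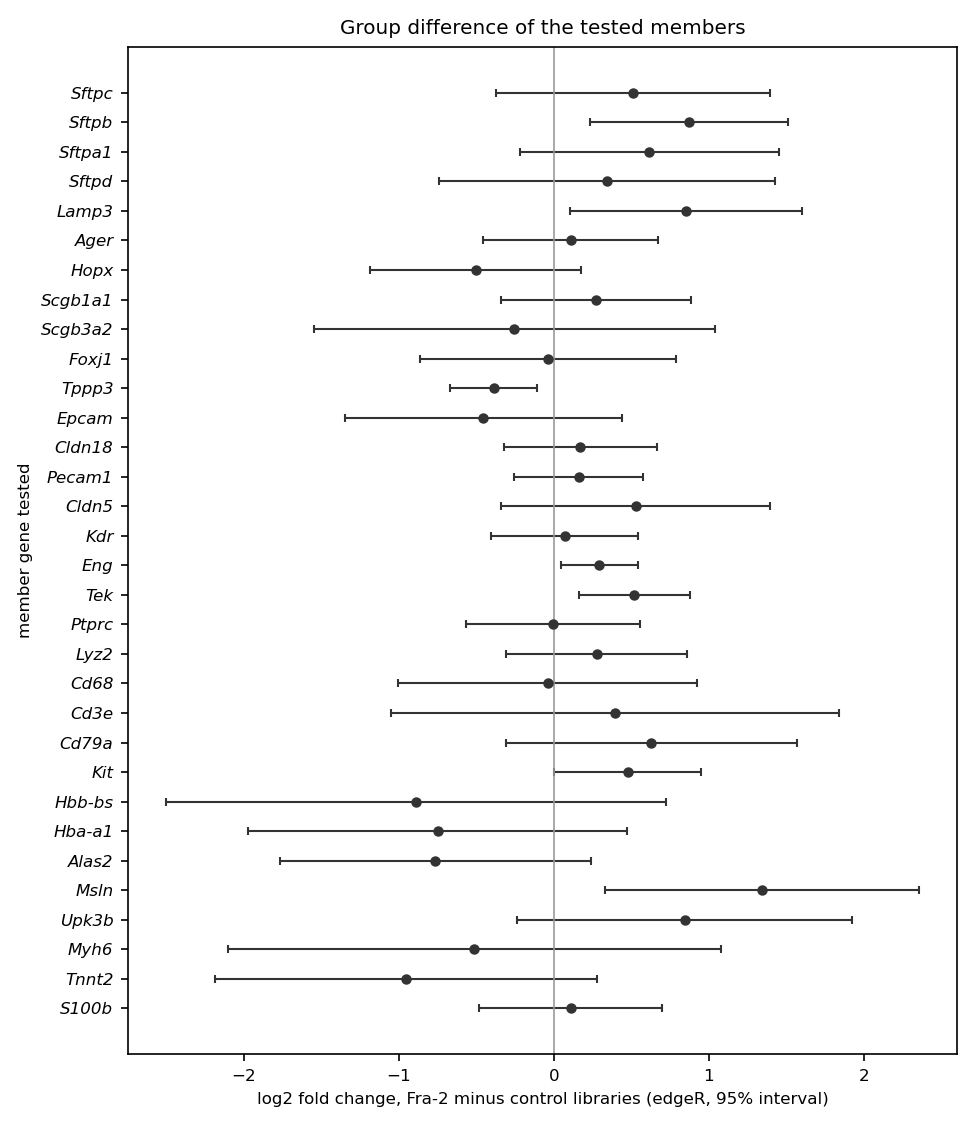
Log2 fold change of the 32 tested members, libraries labelled Fra-2 transgenic minus controls, as points with 95% intervals from edgeR (n = 4 per group). Intervals are narrowest for Eng and Tppp3 and widest for Hbb-bs, Myh6 and Cd3e, and 0 members passed at an adjusted p under 0.05.

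Type 2 alveolar markers summed to 35.4 to 105 CPM in the controls and 81.0 to 177 CPM in the libraries labelled transgenic. Sums of different classes rest on different numbers and lengths of genes, so the classes are not ranked by them. All 5 members had positive fold changes, 2 of them (Sftpb and Lamp3) at an unadjusted edgeR p under 0.05, and 0 passed after adjustment. Sftpc, which encodes the surfactant protein made only by type 2 cells (chromosome 14, 70520949 to 70524081 in GRCm38), measured 21.8, 37.0, 64.9 and 54.9 CPM in control 1 to control 4. In Fra-2 1 to Fra-2 4 it measured 38.3, 53.1, 61.3 and 101 CPM. Control 1 was the lowest library and Fra-2 4 the highest, 4.64-fold apart, and the groups overlapped. The means were 44.6 ± 19.1 and 63.5 ± 26.9 CPM (SD, n = 4), a log2 fold change of 0.51 (edgeR, SE 0.385 and adjusted p = 0.83). With 950 to 3818 reads per library, counting error was 2.32% of the mean, against a spread of 44.1% between the 8 libraries.

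Sftpb, a surfactant protein of type 2 and club cells (chromosome 6, 72304610 to 72314371), was an epithelial member whose groups did not overlap, as was Tppp3 below. Sftpb measured 8.03, 21.7, 22.4 and 18.7 CPM in the controls and 28.3, 33.5, 23.7 and 43.8 CPM in the libraries labelled transgenic. All 4 of the latter lay above all 4 controls, though Fra-2 3 exceeded control 3 only narrowly. The means were 17.7 ± 6.65 and 32.3 ± 8.62 CPM, a fold of 1.83 (95% interval 1.18 to 2.85, edgeR adjusted p = 0.314). Only DESeq2 called it, and under the other fits its adjusted p ran up to 0.601. Groups did not overlap in the same direction for 2 of the 33 members, Sftpb and Tek, and for 3.35% of all tested genes.

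Sftpb, Sftpa1 and Lamp3 shared the lowest and the highest library of Sftpc, and Sftpd shared the highest. Sftpa1, a lipid-binding collectin of surfactant, ran from 3.42 CPM in control 1 to 23.4 CPM in Fra-2 4, and the remaining libraries held 9.72 to 13.5 CPM. Lamp3, a membrane protein of lamellar bodies, ran from 1.58 CPM in control 1 to 6.78 CPM in Fra-2 4. Sftpd, another collectin, stayed between 0.432 and 1.83 CPM on 15 to 69 reads. The ratio of Sftpa1 to Sftpc moved only 2.02-fold across libraries (0.157 to 0.316), while Sftpa1 itself moved 6.84-fold.

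Of the 6 companion genes of type 2 cells, 0 rose, 0 fell and 6 did not pass. The most abundant, Lpcat1, a lipid-remodelling enzyme, measured 68.9 and 67.8 CPM in the group means and varied far less than the surfactant genes. Slc34a2, the phosphate transporter of type 2 cells, kept to Sftpb. Among the 15421 other tested genes ordered by how closely their level followed Sftpb over the 8 libraries (Pearson correlation of log2 values, given as a description), Slc34a2 was number 2 and Sftpa1 number 13. In the same order for Sftpc, Sftpa1 was number 80, Lamp3 number 129 and Sftpb number 338, while the companion Abca3, a lipid transporter, was number 7367. Ahead of all listed type 2 genes in that order were others such as Robo1 (number 1) and Des, a listed myofibroblast marker (number 8).

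Type 1 alveolar markers were low. Ager, the receptor for advanced glycation end products that is abundant on type 1 cells, measured 4.25, 8.64, 4.93 and 5.08 CPM in the controls and 6.28, 7.13, 3.94 and 7.31 CPM in the libraries labelled transgenic. Control 2 was the highest and Fra-2 3 the lowest, with a log2 fold change of 0.11 (edgeR, SE 0.263 and adjusted p = 0.963). Hopx, a homeodomain protein of type 1 cells, measured 2.07, 3.34, 3.44 and 3.61 CPM in the controls and 1.41, 2.07, 1.92 and 3.34 CPM in the other group. Its groups overlapped, and 27.2% of its exon bases are shared with the antisense gene Hopxos, whose reads could not be told apart from it without strand. Of 6 companion genes, 0 rose, 0 fell and 6 did not pass, the most abundant being Emp2, a membrane protein, at 144 and 140.4 CPM.

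Airway markers were led by Scgb1a1, the secretoglobin of club cells (chromosome 19, 9083636 to 9087958). It measured 14.2, 29.8, 17.8 and 31.4 CPM in the controls and 17.0, 28.4, 37.9 and 29.3 CPM in the libraries labelled transgenic. Control 1 was again the lowest, the highest was Fra-2 3, and the log2 fold change was 0.27 (edgeR, SE 0.281 and adjusted p = 0.893). Scgb3a2, a second secretoglobin, measured 0.78, 1.28, 0.126 and 1.20 CPM against 1.04, 0.414, 0.725 and 0.663 CPM, on as few as 4 reads in control 3. Among the 4 companion genes, 2 were tested and 0 rose or fell. Cyp2f2, a club cell monooxygenase and the most abundant of them at 5.95 and 9.12 CPM, was number 1 of 15421 genes in likeness to Scgb1a1, whereas Scgb3a2 was number 4437.

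The 2 ciliated members parted from each other. Tppp3, a microtubule-binding protein, measured 36.0, 41.9, 33.2 and 29.3 CPM in the controls and 25.3, 27.3, 25.5 and 29.1 CPM in the libraries labelled transgenic. All 4 of the latter lay below the controls, by a margin of under 1 CPM between control 4 and Fra-2 4. It was the 1 member of 33 with that separation, which 2.42% of tested genes showed, and its log2 fold change was -0.39 (edgeR, SE 0.131 and adjusted p = 0.292). Foxj1, the transcription factor that drives motile cilia, measured 1.35, 3.11, 1.64 and 1.77 CPM against 1.90, 3.15, 1.42 and 1.22 CPM. The ratio of Tppp3 to Foxj1 ran from 8.65 in Fra-2 2 to 26.6 in control 1. Per kilobase, Tppp3 stood at 16.7 CPM per kb and Foxj1 at 0.742. Of 6 companion genes of ciliated cells 3 were tested and 0 rose or fell, and the most abundant, the axonemal gene Ccdc39, measured 4.48 and 3.03 CPM. Fold changes of the 3 were all negative (median log2 fold change -0.56), as was that of Tppp3. In likeness to Tppp3, Ccdc39 was number 117, Tekt1 number 2093, Rsph1 number 2852 and Foxj1 number 5008 of 15421 genes.

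General epithelial markers were uneven in level. Cldn18, a tight-junction claudin of lung epithelium, measured 14.2, 28.5, 21.8 and 27.3 CPM in the controls and 24.3, 21.8, 20.2 and 36.8 CPM in the libraries labelled transgenic. Control 1 and Fra-2 4 were the extremes, as for Sftpc, and the log2 fold change was 0.17 (edgeR, SE 0.228 and adjusted p = 0.932). Epcam, an epithelial adhesion molecule, measured 0.803, 1.08, 1.74 and 1.47 CPM against 0.692, 1.02, 0.851 and 1.14 CPM. Per kilobase, Epcam stood at 0.501 and Cldn18 at 5.47 CPM per kb. Of 8 companion genes 4 were tested, 0 rose and 0 fell, and the most abundant was E-cadherin (Cdh1) at 7.44 and 9.91 CPM.

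**Figure D3:**
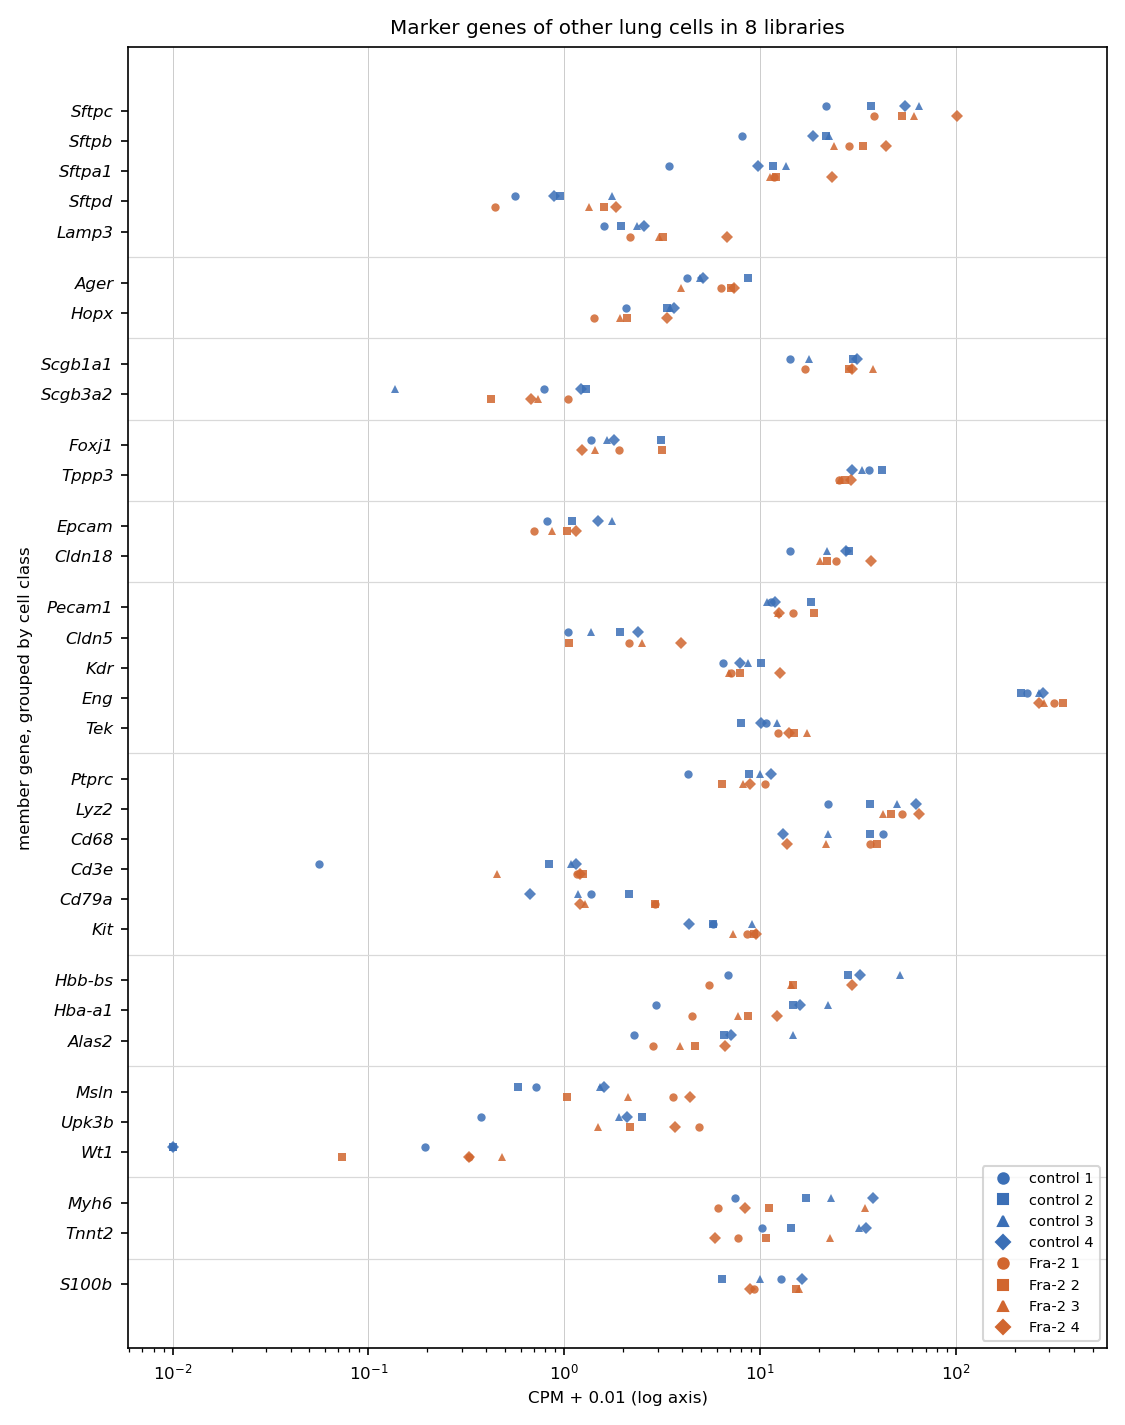
CPM of each of the 33 members in the 8 libraries on a log axis, with 0.01 added so that libraries without reads appear at the left edge (controls are blue, libraries labelled Fra-2 transgenic orange, 1 symbol per library). Control 1 is the lowest library for 14 members and Fra-2 4 the highest for 11.

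Among the endothelial markers, Eng stood apart in level. Eng, which encodes endoglin, a co-receptor for TGF-beta and BMP ligands (chromosome 2, 32646595 to 32682669), measured 231, 216, 264 and 278 CPM in the controls. It measured 316, 350.1, 280.0 and 266 CPM in the libraries labelled transgenic. Fra-2 2 and Fra-2 1 were highest and the groups overlapped through Fra-2 4, with a log2 fold change of 0.29 (edgeR, SE 0.115 and adjusted p = 0.424). Eng held 68.0 CPM per kb, while the other endothelial members held 0.937 (Kdr) to 2.64 (Tek) CPM per kb. Its spread over the 8 libraries was 15.7%, the smallest of the 33 members.

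Pecam1, the junctional adhesion molecule CD31 (chromosome 11, 106654217 to 106750628), measured 11.3, 18.1, 10.9 and 11.9 CPM in the controls. It measured 14.7, 18.8, 12.3 and 12.4 CPM in the libraries labelled transgenic. Control 2 and Fra-2 2 were high and the others close together, and the ratio of Eng to Pecam1 ran from 11.9 in control 2 to 24.2 in control 3. Tek, the angiopoietin receptor, measured 10.7, 7.98, 12.1 and 10.05 CPM against 12.3, 14.9, 17.3 and 14.0 CPM. Its 2 groups did not overlap, at a fold of 1.43 (95% interval 1.12 to 1.84), and it had the smallest adjusted p of the members (edgeR, 0.253).

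Kdr, the main VEGF receptor of endothelium, ran from 6.47 CPM in control 1 to 12.7 CPM in Fra-2 4. Cldn5, the endothelial claudin, ran from 1.03 CPM in control 1 to 3.92 CPM in Fra-2 4, with 1.05 CPM in Fra-2 2. The endothelial members did not share 1 pattern over the libraries: in likeness to Pecam1, Eng was number 4447, Kdr number 5680, Tek number 9201 and Cldn5 number 9747 of 15421 genes. Of 13 companion genes 12 were tested, 0 rose, 0 fell and 12 did not pass. The most abundant, Calcrl, a receptor for adrenomedullin, measured 27.9 and 28.7 CPM. Fold changes of the 12 were positive for 9 and negative for 3. The smallest adjusted p of the 12 was that of Flt1 (edgeR, 0.294), which was lower in the libraries labelled transgenic, opposite to Tek and Eng.

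Leukocyte markers were present in all 8 libraries. Lyz2, the lysozyme of macrophages and neutrophils (chromosome 10, 117277331 to 117282321), measured 22.1, 36.3, 49.7 and 62.7 CPM in the controls and 53.2, 46.7, 42.5 and 64.4 CPM in the libraries labelled transgenic. Control 1 was lowest and Fra-2 4 highest, and the log2 fold change was 0.28 (edgeR, SE 0.265 and adjusted p = 0.886). Ptprc, the pan-leukocyte phosphatase CD45, measured 4.27, 8.78, 9.95 and 11.3 CPM against 10.6, 6.40, 8.19 and 8.90 CPM, with group means of 8.58 and 8.53 CPM. The ratio of Lyz2 to Ptprc was 4.13 to 7.29, a 1.76-fold range.

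Lyz2 has a close copy, Lyz1, whose coding sequence differs at 22 of 447 bases with a longest identical run of 118 bases. The 60 coding bases with the most differences, bases 61 to 120 in exon 1 (GENCODE M21, coding strand, 5′ to 3′), are shown because they are where reads of the pair can be told apart, with differing bases in capitals. Lyz2 lies on the minus strand at chr10:117282123-117282182 and Lyz1 on the minus strand at chr10:117292719-117292778.
Lyz2: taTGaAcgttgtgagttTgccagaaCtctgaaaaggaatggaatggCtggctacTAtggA
Lyz1: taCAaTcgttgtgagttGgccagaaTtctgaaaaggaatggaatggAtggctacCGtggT
The counts of Lyz1 were 0.0471 to 0.141 of those of Lyz2. With both copies summed, the means were 45.3 ± 18.4 and 56.2 ± 10.7 CPM (log2 fold change 0.31, edgeR adjusted p = 0.86).

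Cd68, a lysosomal glycoprotein used as a macrophage marker (chromosome 11, 69664213 to 69666153), did not follow Ptprc or Lyz2. It measured 42.5, 36.6, 22.2 and 13.03 CPM in the controls and 36.2, 39.6, 21.7 and 13.7 CPM in the libraries labelled transgenic. Control 1, the lowest library for Lyz2, was the highest for Cd68, and control 4 and Fra-2 4, the highest for Lyz2, were the lowest for Cd68. The ratio of Cd68 to Ptprc ran from 1.15 in control 4 to 9.95 in control 1. In likeness to Cd68, Ptprc was number 13138 and Lyz2 number 14131 of 15421 genes, whereas the B cell gene Cd79a was number 925. The group means were 28.6 ± 13.4 and 27.8 ± 12.2 CPM (edgeR adjusted p = 0.993).

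Values of neighbouring genes and of all genes are given beside Cd68. The first principal axis of all tested genes, 29.7% of their variance, placed control 1 (-0.47), control 2 (-0.42) and Fra-2 2 (-0.35) at one end and control 4 (0.37) and Fra-2 4 (0.49) at the other. Cd68 correlated with this axis at -0.90 over the 8 libraries, and other members did so nearly as closely with the opposite sign, among them Cldn5 (0.83), Msln (0.81), Lyz2 (0.78) and Sftpc (0.77). Eif4a1, a translation initiation factor whose gene ends 782 bases upstream of Cd68 on the same strand, measured 111, 97.2, 95.4 and 79.2 CPM in the controls and 91.3, 103, 92.0 and 76.9 CPM in the other group. Control 1, Fra-2 2 and control 2 were the highest libraries for Eif4a1 and control 4 and Fra-2 4 the lowest, as for Cd68. The libraries between were ordered otherwise. Mpdu1, the same-strand neighbour on the other side, 1570 bases away, did not have the order of Cd68, at 13.9, 14.5, 11.8 and 15.2 CPM against 14.8, 18.3, 12.2 and 11.6 CPM. The part of these in the reads counted for Cd68 was not tested.

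The remaining immune members were low. Cd3e, of the T cell receptor complex, held 2 reads in control 1 (0.0459 CPM) and 0.441 to 1.24 CPM in the other libraries. Cd79a, of the B cell receptor, ran from 0.662 CPM in control 4 to 2.91 CPM in Fra-2 1. Kit, the stem cell factor receptor of mast cells and some endothelium, measured 4.30 to 9.07 CPM in the controls and 7.25 to 9.49 CPM in the other group (edgeR adjusted p = 0.57). The mast cell gene Cpa3 was at most 1.02 CPM. Of 21 companion genes 13 were tested, 0 rose, 0 fell and 13 did not pass, and the most abundant, the macrophage growth factor receptor Csf1r, measured 7.83 and 7.14 CPM.

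Red cell genes varied more between libraries than any other class with more than 2 members tested, and they moved together. Hbb-bs, an adult beta-globin (chromosome 7, 103826534 to 103828096), measured 6.86, 28.2, 52.0 and 32.3 CPM in the controls and 5.45, 14.8, 14.3 and 29.6 CPM in the libraries labelled transgenic. Control 3 was highest and Fra-2 1 lowest, 9.54-fold apart, and the log2 fold change was -0.89 (edgeR, SE 0.683 and adjusted p = 0.84). Hba-a1, an adult alpha-globin, measured 2.94, 14.7, 22.2 and 15.9 CPM against 4.47, 8.69, 7.66 and 12.2 CPM. Alas2, the erythroid enzyme that starts haem synthesis, ran from 2.27 CPM in control 1 to 14.7 CPM in control 3, and 12.9% of its exon bases overlap Apex2 on the opposite strand. In likeness to Hbb-bs, Hbb-bt was number 2, Hba-a1 number 3, Hba-a2 number 5, Alas2 number 6 and Slc4a1, the red cell anion exchanger, number 9 of 15421 genes. The ratio to Hbb-bs still ran from 0.414 to 0.820 for Hba-a1 and from 0.220 to 0.519 for Alas2, both highest in Fra-2 1. Of the 7 erythroid companion genes listed, 6 had a row, 4 were tested, 0 rose and 0 fell, and the most abundant was Hbb-bt at 16.7 and 9.27 CPM.

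The globins are near-identical pairs, so the split of reads between copies is uncertain. The coding sequences of Hba-a1 and Hba-a2 differ at 1 of 429 bases, and those of Hbb-bs and Hbb-bt at 1 of 444. The 60 coding bases around each difference are shown because the single capital letter is all that separates the pair in the coding region (GENCODE M21, coding strand, 5′ to 3′, exon 3 in each gene). Hba-a1 lies on the plus strand at chr11:32284313-32284372 and Hba-a2 on the plus strand at chr11:32297130-32297189. Hbb-bs lies on the minus strand at chr7:103826665-103826724 and Hbb-bt on the minus strand at chr7:103812656-103812715.
Hba-a1: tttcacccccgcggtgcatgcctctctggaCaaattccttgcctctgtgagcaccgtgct
Hba-a2: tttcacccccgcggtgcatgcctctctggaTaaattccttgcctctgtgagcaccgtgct
Hbb-bs: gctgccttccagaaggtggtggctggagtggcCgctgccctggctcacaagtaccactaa
Hbb-bt: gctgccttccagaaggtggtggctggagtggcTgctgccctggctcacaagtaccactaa
The ratio of Hba-a2 to Hba-a1 stayed within 0.675 to 0.868 over the 8 libraries. With copies summed, the alpha-globins measured 25.2 ± 14.9 and 14.6 ± 5.94 CPM (log2 fold change -0.79, edgeR adjusted p = 0.828) and the beta-globins 46.6 ± 31.4 and 25.3 ± 16.7 CPM (log2 fold change -0.88, edgeR adjusted p = 0.865).

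Mesothelial markers were scarce. Msln, the surface protein mesothelin (chromosome 17, 25748613 to 25754378), measured 0.711, 0.57, 1.52 and 1.59 CPM in the controls and 3.57, 1.02, 2.11 and 4.40 CPM in the libraries labelled transgenic. Fra-2 4 and Fra-2 1 were highest and Fra-2 2 lay among the controls. The log2 fold change was 1.35 (edgeR, SE 0.473 and adjusted p = 0.331), on 20 to 166 reads per library. Upk3b, a uroplakin of mesothelium and the most abundant member of the class, measured 0.367, 2.48, 1.90 and 2.08 CPM against 4.84, 2.17, 1.48 and 3.68 CPM (edgeR log2 fold change 0.84 with SE 0.503 and adjusted p = 0.725).

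Wt1, a transcription factor of mesothelium, had no reads in control 2, control 3 and control 4, which allows up to 3 reads in each (0.0855, 0.0948 and 0.0903 CPM). It measured 0.184 CPM in control 1 and 0.317, 0.0637, 0.473 and 0.318 CPM in Fra-2 1 to Fra-2 4, with 15 reads at most. These limits cover counting error only. Of 6 companion genes listed 5 had a row, 3 were tested, 0 rose and 0 fell, and the most abundant, Upk1b, measured 1.32 and 1.80 CPM. The smallest adjusted p of the 3 was that of Lrrn4, higher in the libraries labelled transgenic (edgeR, 0.424). In likeness to Msln, Lrrn4 was number 103, Upk3b number 1343, Upk1b number 2043 and Krt19 number 3963 of 15421 genes.

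Heart muscle genes were detected in every library and moved together. Myh6, the alpha-myosin heavy chain of heart muscle (chromosome 14, 54941921 to 54966927), measured 7.44, 17.2, 23.1 and 37.7 CPM in the controls and 6.08, 11.1, 34.2 and 8.37 CPM in the libraries labelled transgenic. Tnnt2, cardiac troponin T, measured 10.2, 14.4, 32.0 and 34.7 CPM against 7.70, 10.7, 22.8 and 5.88 CPM. Control 4, control 3 and Fra-2 3 were the 3 high libraries for both genes, and the ratio of Tnnt2 to Myh6 stayed within 0.667 to 1.39. The log2 fold changes were -0.51 for Myh6 (edgeR, SE 0.677 and adjusted p = 0.932) and -0.96 for Tnnt2 (edgeR, SE 0.535 and adjusted p = 0.722). In likeness to Myh6, the atrial light chain gene Myl7 was number 7, cardiac troponin I (Tnni3) number 12 and Tnnt2 number 14 of 15421 genes. Ryr2, the calcium release channel of heart and smooth muscle and the most abundant of 7 companion genes at 2.25 and 4.21 CPM, was number 10925. Of these 7, 5 were tested, 0 rose and 0 fell. Nppa, the atrial natriuretic peptide gene, had at most 0.0948 CPM.

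**Figure D4:**
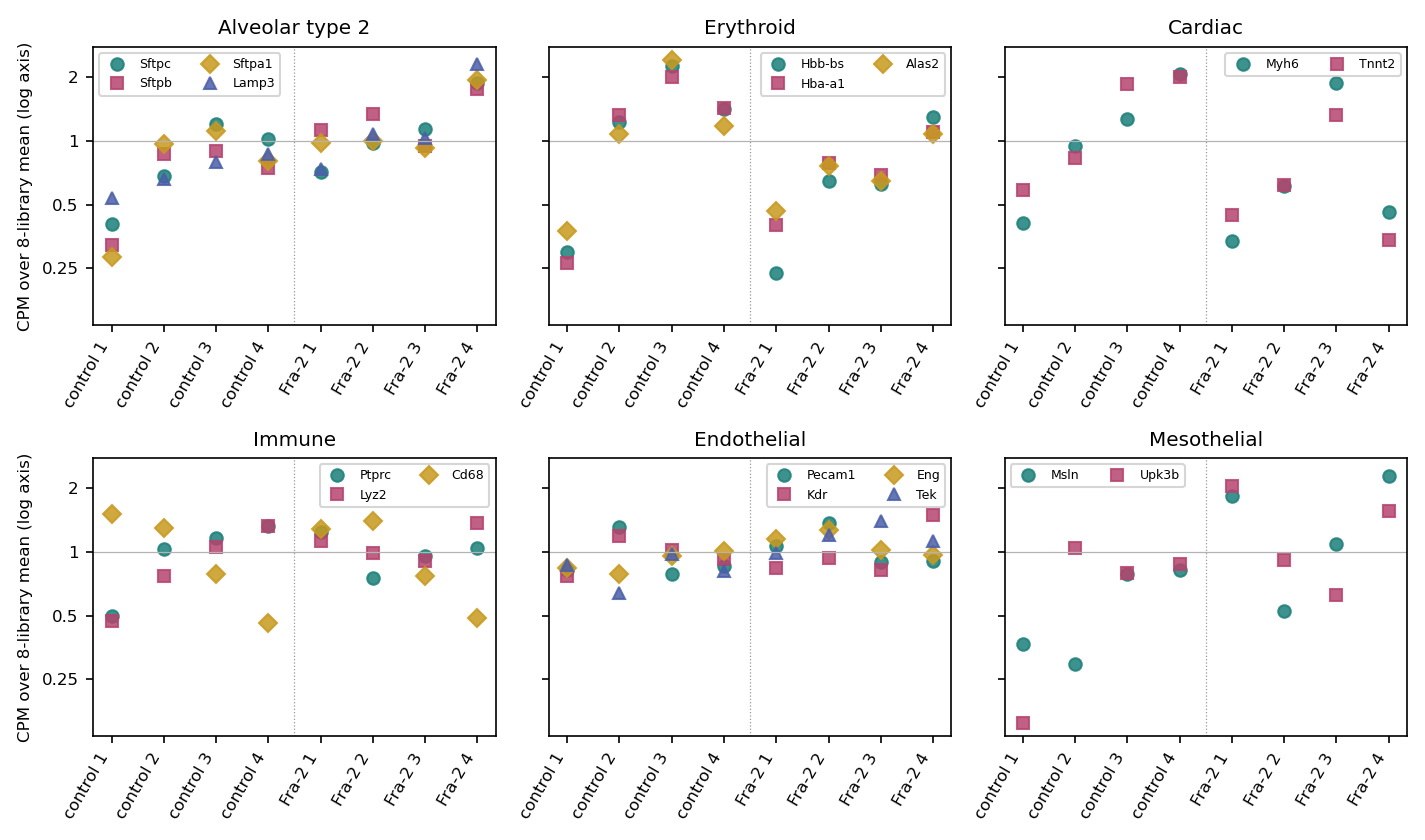
Level of selected members in each library relative to their mean over the 8 libraries, on a log axis, in 6 panels by cell class (controls left of the dotted line, libraries labelled Fra-2 transgenic right). The 3 erythroid genes and the 2 cardiac genes follow similar courses over the libraries, while Cd68 runs against Ptprc and Lyz2. Ratios within these classes still ranged up to 2.35-fold (Alas2 to Hbb-bs) and 2.08-fold (Tnnt2 to Myh6).

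S100b, a calcium-binding protein of glia that other cells also make, measured 12.8, 6.36, 10.01 and 16.3 CPM in the controls and 9.31, 15.2, 15.7 and 8.85 CPM in the libraries labelled transgenic. The groups overlapped fully (edgeR log2 fold change 0.11 with SE 0.273 and adjusted p = 0.964). The glial transcription factor Sox10 had no reads in any control and at most 0.126 CPM in the other group. Cdh19, a Schwann cell cadherin, had a read in 1 library only. Of 6 glial companion genes 2 were tested, 0 rose and 0 fell.

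Levels of these markers also differed between libraries of the same group. Control 1 was the lowest library for 14 of the 33 members and lay below the mean of the 8 libraries for 28, and its members without Eng summed to 258 CPM. In the other 7 libraries that sum was 353 to 508 CPM, highest in Fra-2 4, which was the highest library for 11 members. Control 1 also had the largest library, at 41335957 counts. Over the 32 tested members, the median spread between the 8 libraries was 42.2% of the mean and the median gap from lowest to highest library 3.53-fold, beside 19.6% and 1.79-fold over all genes tested. Without control 1, 0 members passed in edgeR and 9 of 33 had an unadjusted p under 0.05, against 7.5% of all genes in that fit.

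Traces of different cell types were compared across the 8 libraries with 1 lead gene per class. Of 15 pairs among Sftpc, Scgb1a1, Pecam1, Ptprc, Hbb-bs and Msln, 10 correlated positively and 5 negatively, and 0 had an adjusted or unadjusted p under 0.05 (two-sided exact permutation tests of log2 values, Benjamini-Hochberg adjusted over the 15). The largest was between Sftpc and Hbb-bs, with Pearson r = 0.63 (exact permutation p = 0.0901, adjusted p = 0.581) and Spearman rho = 0.62 (exact permutation p = 0.115, adjusted p = 0.802). Without control 1 and Fra-2 4, the libraries farthest from the median of Sftpc, r was 0.47. With each group's mean removed, a step added after the data were seen, r for this pair was 0.96 (exact permutation within groups p = 0.00347, adjusted p = 0.0521), and rho was 0.90 (exact permutation p = 0.00868, adjusted p = 0.13). Neither adjusted p passed 0.05. In the controls both genes ranked the libraries alike, from control 1 up through control 2 and control 4 to control 3.

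Of 90 companion genes listed for these classes, 88 had a row in the table, 60 were tested and 0 passed in either direction (edgeR). The median log2 fold change of the tested companions was -0.04. At an unadjusted edgeR p under 0.05 there were 4, against 8.71% of all tested genes. Akap5 and Flt1 were lower in the libraries labelled transgenic, and Lrrn4 and Ryr2 higher. The groups did not overlap for 2 companions in the higher direction and 1 in the lower, against 3.35% and 2.42% of all tested genes. The smallest adjusted p was that of Akap5, a scaffold protein gene listed with type 1 cells, at 88.8 and 57.6 CPM (edgeR adjusted p = 0.0828).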

How the data were processed

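Raw counts by mouse Ensembl gene, in a single table deposited by the authors, had 8 columns named by sample title. Aligner, counting tool and annotation: not given in the sources used here. The submitters' processing notes name GRCh38, a human build, although the identifiers are those of mouse genes. Per the labels' protocols, mRNA from 50 ng of total RNA was amplified (NuGEN Ovation RNA-Seq System V2) and made into Nextera XT libraries, with no step named that marks strand. Such amplification can widen the spread between libraries.

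Symbols came from a name table (42462 of 43432 identifiers matched) and coordinates, exon lengths and sequences from GENCODE M21 on GRCm38. Genes were kept by filterByExpr of edgeR 4.0.16 (minimum count 10, minimum total 15) in R 4.3.3. They were scaled by TMM and compared with the quasi-likelihood F-test with robust dispersion, no covariate and Benjamini-Hochberg adjustment over all 15422 genes tested. SE was derived as |log2 fold change| over the root of F. Library pairs within a group differed by more than sampling noise (chi-square per gene 36.0 to 155), and all 8 were kept. Correlations used log2(CPM + 1). The procedure was tested on simulated data.

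The members and lists were chosen with earlier results of these data known. Values in each library are given for the 2 most abundant members of each class, and full statistics for the most abundant tested member. Those of other members were added after their values were seen, as were the likeness ranks, the Cd68 neighbours, the principal axis and the summed copies. Companion genes are named by abundance, except 1 glial gene that is not reported here, and others after their values were seen. Alternatives were RLE and unscaled library sizes, no filter, a filter of at least 1 CPM in 4 libraries, DESeq2 1.42.0, a replicate block and leaving out each library.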

Additional observations from a re-analysis of the deposited data

Results flagged for a closer look

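In 66 groups of 4 libraries (33 members in each group), 5 held a library far from the other 3 by Dixon's ratio of gap to range at the 95% level, which chance passes in about 1 group in 20. Sftpa1 in Fra-2 4 measured 23.4 CPM, where the other libraries of its group held 11.2 to 12.0 CPM. Kdr in the same library measured 12.7 CPM against 6.93 to 7.87 CPM. Pecam1 in control 2 measured 18.1 CPM against 10.9 to 11.9 CPM in the other controls. Cd3e in Fra-2 3 measured 0.441 CPM against 1.15 to 1.24 CPM. Wt1 in control 1 measured 0.184 CPM, while the other 3 controls held no reads. With no reads in those 3, the ratio is 1 for any count in control 1, so this flag rests on the floor.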

How the results depend on the processing

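The count of members past the threshold was 0 in either direction under all 14 alternatives except DESeq2, which called 1 higher member (Sftpb, log2 fold change 0.87). With the replicate block it was 0 and 0, and 10 of 32 members had an unadjusted p under 0.05, against 9.93% of all genes. Among them, the block moved the unadjusted edgeR p of Sftpc from 0.221 to 0.00388 (adjusted p = 0.151) and that of Hbb-bs from 0.233 to 0.01 (adjusted p = 0.254). Over all genes, 111 higher and 46 lower became 137 and 53 with the replicate block and 266 and 104 in DESeq2. Leaving out 1 library gave 50 to 153 higher and 22 to 52 lower. The higher count moved by over 1.5 times when the library left out was Fra-2 1 (54), control 2 (50), Fra-2 3 (50), control 3 (67) or Fra-2 4 (72), and the lower count when it was control 2 (26), control 3 (23) or Fra-2 1 (22). The labels do not say what a replicate number marks. Same-numbered libraries correlated at -0.03, 0.21, 0.13 and 0.34 in their deviations from the group means, so 1 of 4 pairs missed the level of 0.1 asked of all, and whether the numbers pair the libraries is not settled. Control 1, Fra-2 1, Fra-2 2 and Fra-2 3 correlated better with another number than with their own. Of 296 alternative fold changes of 21 named members, 281 kept their sign and side of the threshold. The sign turned, with no call, when 1 library was left out, with ranges of -0.011 to 0.38 for Ager, -0.61 to 0.018 for Scgb3a2, -0.38 to 0.28 for Foxj1, -0.051 to 0.30 for Cldn18, -0.28 to 0.22 for Cd68 and -0.082 to 0.33 for S100b. Of all 33 members, 9 had both signs over the fits. For the other correlations, without the 2 libraries farthest from the median r turned to -0.12 (Sftpc and Ptprc), -0.22 (Scgb1a1 and Ptprc), -0.75 (Scgb1a1 and Hbb-bs), 0.38 (Pecam1 and Ptprc), 0.71 (Pecam1 and Msln), -0.033 (Ptprc and Hbb-bs) and 0.065 (Hbb-bs and Msln). With group means removed it turned to -0.15 (Scgb1a1 and Msln) and 0.28 (Hbb-bs and Msln). The causes were not tested. Scgb3a2, Cd3e and Wt1, under 1 CPM, rest on at most 45 reads per library, which limits what differences were detectable in them.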

Other observations

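Some genes that passed the comparison between groups are also known from the cell types described above, and their values are given beside the markers. Aldh1a2, an enzyme of retinoic acid synthesis that mesothelium makes, measured 11.3, 17.6, 14.4 and 16.8 CPM in the controls. It measured 63.1, 24.9, 38.8 and 65.8 CPM in the libraries labelled transgenic (edgeR adjusted p = 0.0143). The mesothelial markers did not share 1 order with it. Within the latter group Msln had the order of Aldh1a2, but Upk3b was highest in Fra-2 1 (4.84 CPM) and lowest in Fra-2 3 (1.48 CPM), and Wt1 was highest in Fra-2 3 (0.473 CPM). In the controls Upk3b had the order of Aldh1a2. Both were highest in control 2, where Msln was lowest (0.57 CPM). Wt1 had reads only in control 1, the lowest control for Aldh1a2. Tmem100, a membrane protein gene of lung endothelium and other cells, measured 39.0, 8.76, 40.0 and 22.7 CPM in Fra-2 1 to Fra-2 4 and 4.27 to 5.16 CPM in the controls. In Fra-2 2, where Tmem100 was lowest of its group, Pecam1 was the highest of its group (18.8 CPM) and Cldn5 the lowest (1.05 CPM). The part of mesothelial or endothelial traces in these differences was not tested.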
